A study of Mus musculus with 2 samples.

Results

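Wwp2, the gene that carries Mir140 inside it, and its paralogues among the NEDD4-family ubiquitin ligases were followed through 1 microarray of miR-140 knockout (miR-140 KO) cells and 1 of wild-type (WT) cells. The members are the 9 mouse genes Wwp2, Wwp1, Itch, Nedd4, Nedd4l, Smurf1, Smurf2, Hecw1 and Hecw2, out of 18193 genes named by at least 1 single-symbol probe set, and they were taken by gene symbol. They are covered by 33 probe sets, each listed under 1 symbol in the platform annotation. Both Affymetrix mouse genome arrays were hybridised with total RNA of cultured rib chondrocytes, the cells that build cartilage. The knockout culture is labelled as depleted of microRNA-140 and the other as control. Both came from animals 5 days old whose strain label names C57BL/6 and CBA. How the deletion was made, which bases it removed, the sex of the animals and how many were pooled are not stated in the labels.

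The family is named after NEDD4. Each member is an E3 ubiquitin ligase with a carboxy-terminal HECT domain, in which a cysteine accepts ubiquitin from an E2 enzyme before it is passed to the substrate, and with WW domains that hold proline-rich PPxY motifs of substrates and adaptors. Most members also carry an amino-terminal C2 domain that binds membranes. In skeletal tissue the family is best known through Smurf1 and Smurf2, which mark SMAD proteins and receptors of BMP and TGF-beta signalling for degradation, and through Wwp2, which is made at high level in cartilage, is a known target gene of Sox9 and is transcribed together with miR-140.

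Mir140 lies on the same strand as Wwp2, 114.9 kb downstream of the annotated Wwp2 start, and within the gene. The sequences below, from RefSeq on GRCm38.p6, show what the knockout label refers to and the annotated start of its host gene. The hairpin, which gives miR-140-5p and miR-140-3p, occupies chr8:107551244-107551313 on the plus strand, with miR-140-3p in capitals. In the mature strand the capitals mark the seed, bases 2 to 8, which directs pairing to target messenger RNAs.
Mir140 hairpin: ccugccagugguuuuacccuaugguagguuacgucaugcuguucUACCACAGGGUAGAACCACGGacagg
mmu-miR-140-3p: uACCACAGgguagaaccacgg

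The Wwp2 promoter covers 250 bases before the start and 50 after it, at chr8:107436120-107436419 on the plus strand. It is shown because every Wwp2 probe set had a lower signal in the knockout array, and because Sox9 signal also differed. Of 3 motifs searched on both strands, the SOX core ACAAT and the SOX motif ACAAAG had no match in these letters, and the E-box CACGTG had 1, which is in capitals. Among 32851 promoter windows of the same length, 31% held ACAAT, 18.7% held ACAAAG and 7.15% held CACGTG. The motifs share no overlapping match here. Which start the cultured cells use was not determined, and the rest of the gene was not searched. The lack of a SOX match in this window therefore says nothing of Sox9 binding elsewhere in Wwp2.
Wwp2 promoter: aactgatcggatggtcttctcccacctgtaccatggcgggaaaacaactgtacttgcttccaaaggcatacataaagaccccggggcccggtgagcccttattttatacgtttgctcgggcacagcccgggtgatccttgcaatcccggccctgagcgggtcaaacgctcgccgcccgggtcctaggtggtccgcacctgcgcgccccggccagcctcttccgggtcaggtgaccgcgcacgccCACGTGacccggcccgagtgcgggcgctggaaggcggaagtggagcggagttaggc

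All values are the authors' RMA signals on the log2 scale, and differences are the miR-140 KO signal minus the WT signal. With 1 array per group there is no test and no error for any difference, so precision is limited by having 2 arrays. A gene stood for by its probe set of highest mean signal was compared where at least 1 array reached a log2 signal of 7, a floor near which signal approaches background; 9897 genes and 15862 probe sets did so. Of the members, 7 of 9 genes and 15 of 33 probe sets passed this floor, and the remaining 18 probe sets are given as values only. The median difference of the genes compared was -0.05 and the central 95% lay between -0.69 and 0.47.

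The arrays also differed outside the family. The chondrocyte label was checked against 16 markers: 14 were at or above the floor in the knockout array and 15 in the WT array, with Col2a1 at 11.98 in the knockout and 13.98 in the WT. All 15 markers compared were lower in the knockout, 13 of them at least 2-fold, and the list median was -2.00. Over all genes compared 59.2% were lower, 1.22% at least 2-fold lower and 0.475% at least 2-fold higher. Summed on the linear scale and taken to log2, the signal of these 15 markers was 14.30 in the knockout and 16.17 in the WT. Matn1, the marker not compared, read 4.99 in the knockout and 6.12 in the WT. Of 10 fibroblast and perichondrium markers compared, 7 were higher and 3 lower in the knockout (median 0.21), with a summed log2 signal of 15.08 in the knockout and 14.77 in the WT. With the probe set used, Col3a1 (1.38) was at least 2-fold higher and Postn (-1.26) at least 2-fold lower. Lum (0.96) and Fbln2 (0.72) were the next farthest from 0. Another Pdgfra probe set above the floor stood at 1.20, where its chosen one stood at 0.08, so the count by 2-fold depends on the probe set. No osteoblast marker of the 4 named on the array reached the floor, and among muscle, leukocyte and endothelial markers Des (0.14), Adgre1 (-0.19), Cd68 (0.01), Csf1r (-0.01) and Kdr (-0.06) were compared and the highest signal in either array was 7.38. Xist read 10.60 in the knockout and 7.01 in the WT, while 3 Y-linked genes read 3.87 to 4.18 in the knockout and 7.75 to 8.86 in the WT. These differences run with the comparison of genotypes, and their part in the results that follow was not tested.

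Wwp2, whose product ubiquitinates transcription factors and other PPxY proteins, was the member that differed most. The probe set used for the gene, 1448146_at, read 7.13 in the miR-140 KO array and 9.65 in the WT array, a difference of -2.52, or 5.72-fold lower. Of the 9897 genes compared, 14 had a more negative difference, the 3 Y-linked genes among them, and 8 had one with values under 7 raised to 7. Wwp2 was the 1 member at least 2-fold lower in the knockout, where 1.22% of all genes compared were, and no member was at least 2-fold higher, where 0.475% of all genes were.

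Each of the other 5 Wwp2 probe sets also had a lower signal in the knockout array, but by amounts that differed widely. The 4 Wwp2 probe sets above the floor spanned 3.51, so the value of -2.52 depends on the probe set read. This span takes in knockout signals under the floor. Of 321 genes with 4 probe sets above the floor, 1 (0.31%), Wwp2 itself, had a range that wide, and the median range was 0.42. Those genes were not matched to Wwp2 for the size of their difference, and 1.22% of all genes compared were at least 2-fold lower. The share therefore cannot show whether the range is wide for a gene that differs as much. Probe set 1448145_at read 5.85 in the knockout and 10.35 in the WT, a difference of -4.50 (22.6-fold lower). Its knockout signal lies under the floor. It was designed from the same complementary DNA, AK004087, as 1448146_at, and the 2 stood at -4.50 and -2.52. Since the bases removed in the knockout are not stated, the loss of a probe set's target sequence and a lower level of the transcript cannot be told apart for this or any other Wwp2 probe set.

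The next pair was designed from expressed sequence tags. Probe set 1456714_at (tag BB217820) read 5.53 in the knockout and 7.42 in the WT, a difference of -1.88. Probe set 1438482_at (tag BM244014) read 6.76 in the knockout and 7.75 in the WT, a difference of -0.99, just short of 2-fold. Both reached the floor in the WT array alone.

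The last pair stayed under the floor in both arrays. Probe set 1457499_at (tag BB545823) read 4.63 in the knockout and 5.23 in the WT, a difference of -0.60. Probe set 1442162_at (tag BG069478) read 5.51 in the knockout and 5.66 in the WT, a difference of -0.15. Both signals lie under the array medians of 6.30 in the knockout and 6.29 in the WT, so little can be read from them.

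In the knockout array 1 of the 6 Wwp2 probe sets was at or above the floor, against 4 of 6 in the WT array. Differences that reach below the floor are poorly scaled. With values under 7 raised to 7, 1448145_at stood at -3.35, a 10.2-fold lower signal, 1438482_at at -0.75 and 1456714_at at -0.42. Raising could not change the -2.52 of 1448146_at, whose knockout signal of 7.13 lies just above the floor and so near background too. Where each probe set lies along the Wwp2 transcript, and on which side of Mir140, was not determined here, so the values cannot be assigned to exons before or after the microRNA or to a shorter Wwp2 isoform.

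**Figure D1:**
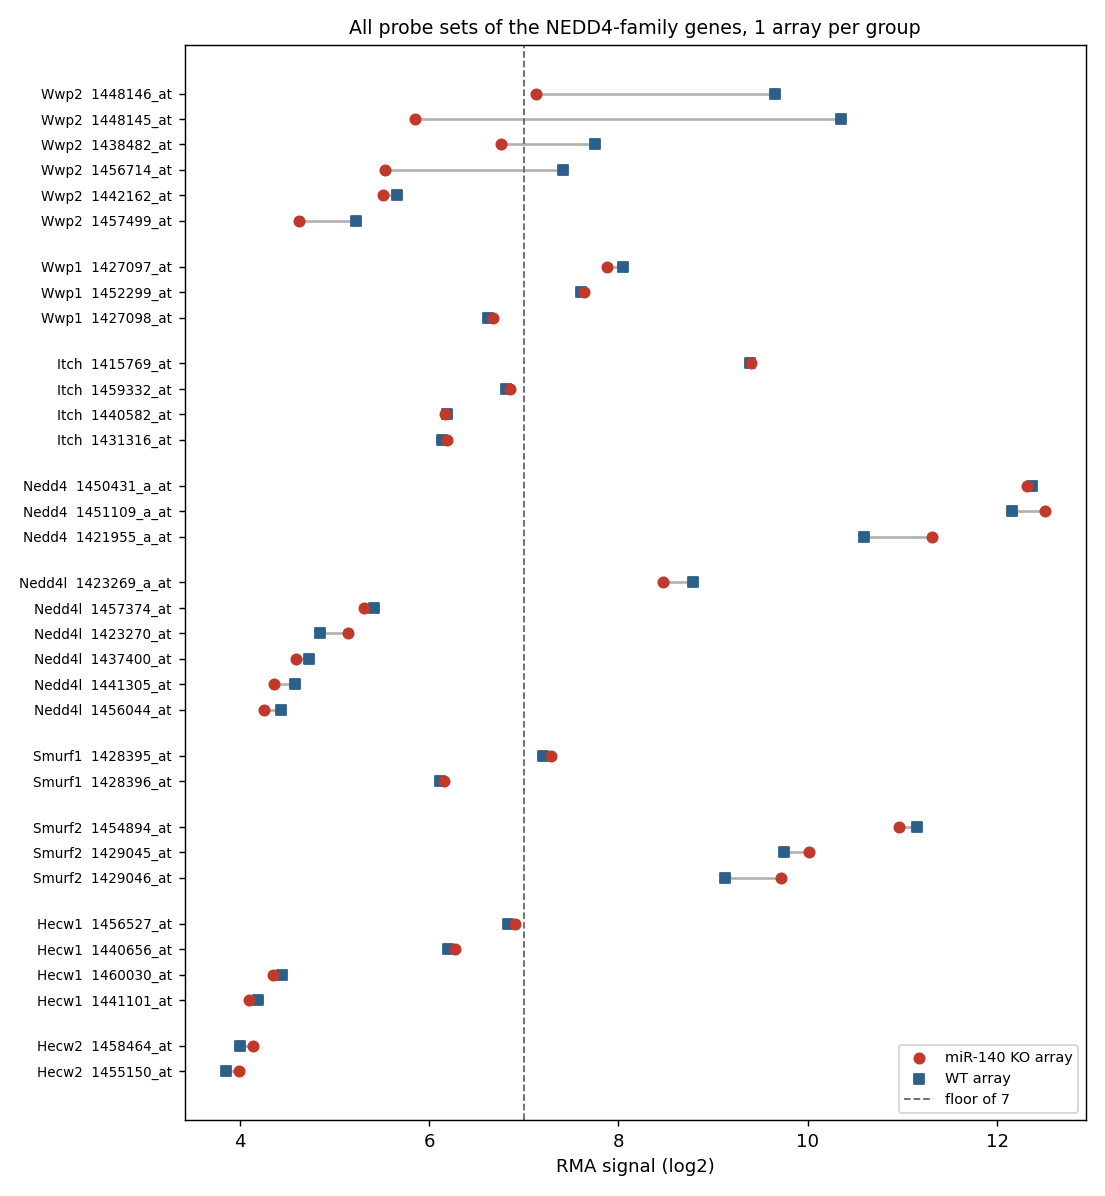
RMA signal on the log2 scale (horizontal axis) of all 33 member probe sets, with circles for the miR-140 KO array, squares for the WT array, a grey line joining the 2 values, and a dashed line at the floor of 7. The circle lies left of the square for all 6 Wwp2 probe sets, and the longest line, from 5.85 to 10.35, belongs to 1448145_at.

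The paralogues showed much smaller differences. Of the 8, 6 were compared, 4 with a lower and 2 with a higher signal in the knockout array. The share of lower genes over all genes compared was 59.2%. Nedd4 and Smurf2 count among the 4 lower with the probe set used, though their probe sets differ in sign. The median difference of the 6 was -0.11, beside -0.05 for all genes compared. Over their 11 probe sets above the floor the tally was the other way, 4 lower and 7 higher, with a median of 0.03, beside -0.03 for all 15862. By gene they lay between -0.31 and 0.08, a band around 0 (up to 0.31 in size) that also held 82.5% of all genes compared. The Wwp2 difference minus the paralogue median was -2.41 on the log2 scale, a gap with no error attached. Single paralogue probe sets above the floor ran from -0.31 to 0.72.

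Wwp1 and Itch are the closest relatives of Wwp2 in domain layout. Wwp1, a ligase of KLF and RUNX factors among others, was read by 3 probe sets designed from a single tag. Probe set 1427097_at read 7.88 in the knockout and 8.05 in the WT (-0.17), 1452299_at read 7.63 in the knockout and 7.60 in the WT (0.03), and 1427098_at, under the floor, read 6.67 in the knockout and 6.62 in the WT (0.05). The 2 above the floor differ in sign.

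Itch, which ubiquitinates JunB and other regulators in T cells, read 9.40 in the knockout and 9.39 in the WT with 1415769_at, a difference of 0.01. Its 3 other probe sets were under the floor and differed by -0.02 to 0.05. Itch was the member nearest to 0 among those compared.

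Nedd4, the founding member and a regulator of growth factor receptors, was bright with all 3 of its probe sets, which did not share a size of difference; their _a_at names mark probe sets that match several transcripts of a gene. Probe set 1450431_a_at, used for the gene, read 12.32 in the knockout and 12.37 in the WT, a difference of -0.05. Probe set 1451109_a_at read 12.50 in the knockout and 12.16 in the WT, a difference of 0.34. Probe set 1421955_a_at read 11.31 in the knockout and 10.59 in the WT, a difference of 0.72 (1.65-fold higher).

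The value for Nedd4 therefore depends on which probe set is read. The first and the last of these were both designed from the reference transcript NM_010890, and they stood at -0.05 and 0.72. The 3 spanned 0.77, a range reached by 81 of 905 genes (8.95%) with 3 probe sets above the floor, whose median range was 0.32. Their mean was 0.34, higher in the knockout.

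Nedd4l, known in epithelia for removing the sodium channel ENaC from the membrane, had 1 of 6 probe sets above the floor. Probe set 1423269_a_at read 8.47 in the knockout and 8.78 in the WT, a difference of -0.31, and 11.7% of all genes compared had a more negative difference. The 5 others, under the floor, differed by -0.22 to 0.30, with 4 of them lower in the knockout. The probe set at 0.30, 1423270_at, was designed from the same tag as the one above the floor and has the opposite sign.

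**Figure D2:**
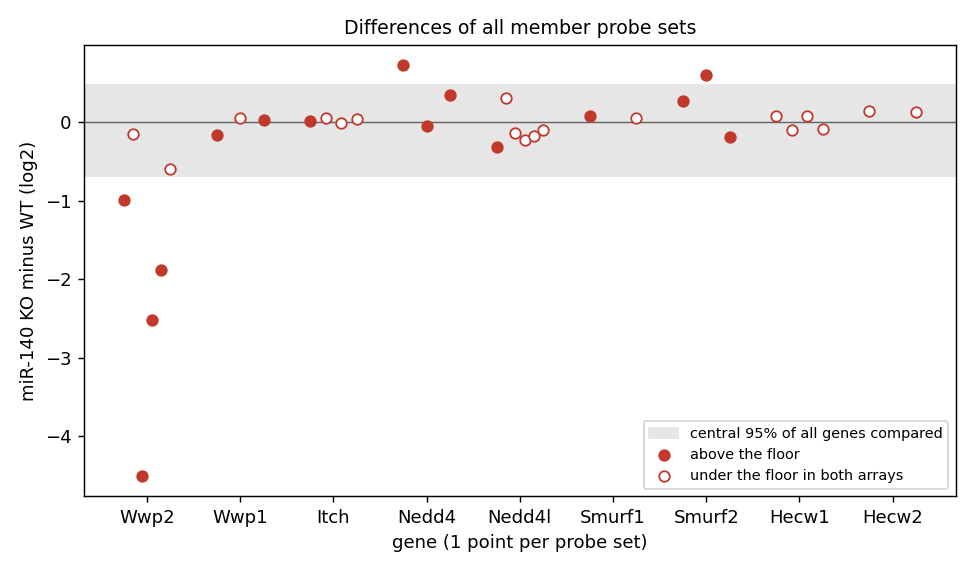
Difference of miR-140 KO minus WT (log2, vertical axis) for every probe set of each member, filled where at least 1 array reached the floor of 7 and open where neither did, with the central 95% of all genes compared (-0.69 to 0.47) in grey. The 4 filled Wwp2 points lie below the grey band, and 1 filled point of Nedd4 (0.72) and 1 of Smurf2 (0.59) lie above it.

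The SMURF ligases were the members with a known place in BMP and TGF-beta signalling. Smurf1 read 7.29 in the knockout and 7.21 in the WT with 1428395_at, a difference of 0.08, and 1428396_at, under the floor, differed by 0.05. Smurf2 behaved like Nedd4 in that its 3 probe sets did not share a sign. Probe set 1454894_at, used for the gene, read 10.96 in the knockout and 11.15 in the WT (-0.19).

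The other Smurf2 probe sets were designed together from tag BI697997 and were both higher in the knockout. Probe set 1429045_at read 10.01 in the knockout and 9.75 in the WT (0.27), and 1429046_at read 9.72 in the knockout and 9.12 in the WT (0.59, or 1.51-fold higher). The range of 0.78 over the 3 was reached by 78 of 905 genes (8.62%), and their mean was 0.22. The probe sets of Nedd4 and Smurf2 thus give no single direction, and both count as lower above only through the probe set used.

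Hecw1 and Hecw2, larger HECT ligases known mainly from the nervous system, stayed under the floor with all 6 of their probe sets. The highest Hecw1 signal, with 1456527_at, was 6.91 in the knockout and 6.83 in the WT. The Hecw1 differences ran from -0.10 to 0.08, and the 2 Hecw2 probe sets, with signals of 3.85 to 4.14 over both arrays, differed by 0.13 and 0.14. No comparison is drawn for these genes.

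**Figure D3:**
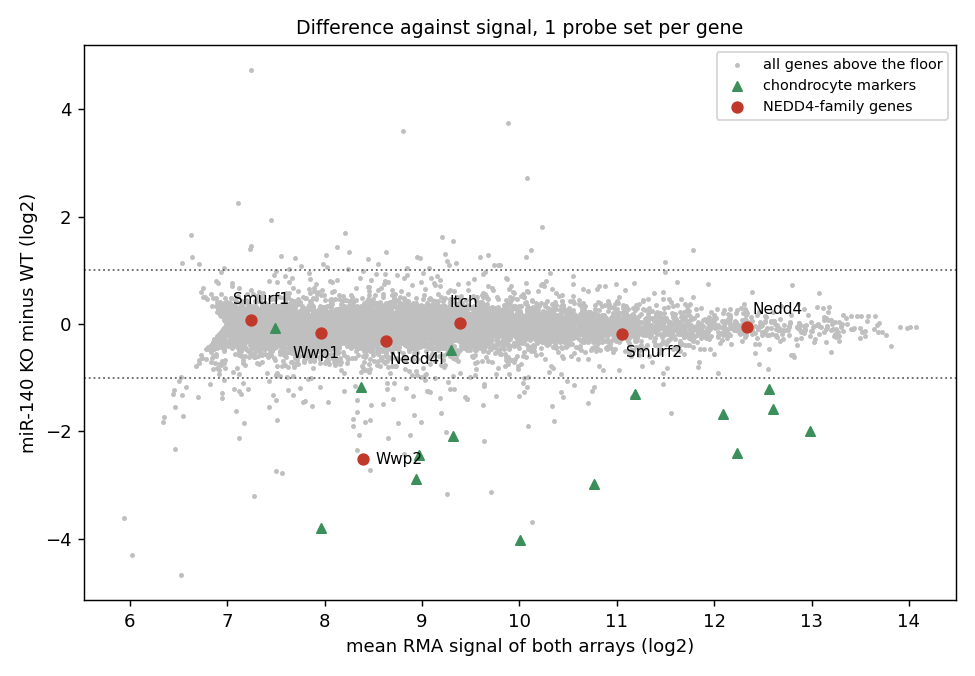
Difference of miR-140 KO minus WT (log2) against the mean signal of both arrays (log2) for the 9897 genes compared, with the 7 NEDD4-family genes as labelled circles, the chondrocyte markers as triangles and dotted lines at 2-fold. With the probe set used for each gene, Wwp2 (-2.52) lies among the triangles, whereas the 6 paralogues (-0.31 to 0.08) lie within the cloud.

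Wwp2 was then placed beside the cartilage genes. With the probe set used for Wwp2 (-2.52), Acan (-4.03), Col9a2 (-3.80), Col9a3 (-2.99) and Snorc (-2.89) had larger negative differences than Wwp2. The 11 other markers compared had smaller ones. This place of Wwp2 depends on the probe set read. Its probe set 1448145_at (-4.50) lay below every marker compared, whereas 1438482_at (-0.99) was nearer to 0 than all of them except Sox6 and Sox5. Closest to Wwp2 were Hapln1, at -2.45, and Cnmd, at -2.40, and Col11a2 stood at -2.09. The Hapln1 probe sets above the floor ran from -2.91 to -1.89, so its place beside Wwp2 depends on the probe set. Comp (-1.67), Col9a1 (-1.58), Matn3 (-1.30) and Col11a1 (-1.22) followed. Sox9, the transcription factor of chondrocytes that is known to drive both Wwp2 and Mir140, read 7.78 in the knockout and 8.96 in the WT, a difference of -1.18. Sox6 stood at -0.49 and Sox5 at -0.07, and other probe sets above the floor stood at -0.64 for Sox6 and at -0.69 for Sox5. In RNA of a whole culture, fewer chondrocytes and less RNA per chondrocyte cannot be told apart, and this holds for Wwp2 as for the markers.

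Genes beside Wwp2 on its chromosome were read in order. The nearest compared genes on one side were Nob1 (-0.06), Nqo1 (-0.51) and Nfat5 (-0.19, with another probe set above the floor at 0.22), and on the other Psmd7 (0.28), Zfhx3 (0.22) and Dhx38 (-0.09). Over the 10 compared genes on each side, 15 of 20 were lower in the knockout, the median was -0.08 and none differed by 2-fold. Of all genes compared 59.2% were lower, 1.22% at least 2-fold lower and 0.475% at least 2-fold higher, so few 2-fold differences would be met in 20 genes. A separate list of 26 genes was drawn up by name as near Wwp2. Their positions were not checked, and the list overlaps the ordered genes only in part. Of its 19 genes compared, 10 were lower and 9 higher, with a median of -0.04. Its largest differences were those of Nqo1, a quinone reductase, St3gal2 (0.43), Il34 (0.28) and Psmd7. St3gal2 and Il34 are not among the 10 compared genes on either side. Next to Wwp2 in the order of compared genes, Nob1 read 8.36 in the knockout and 8.41 in the WT. Psmd7, next on the other side, read 9.83 in the knockout and 9.55 in the WT.

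**Figure D4:**
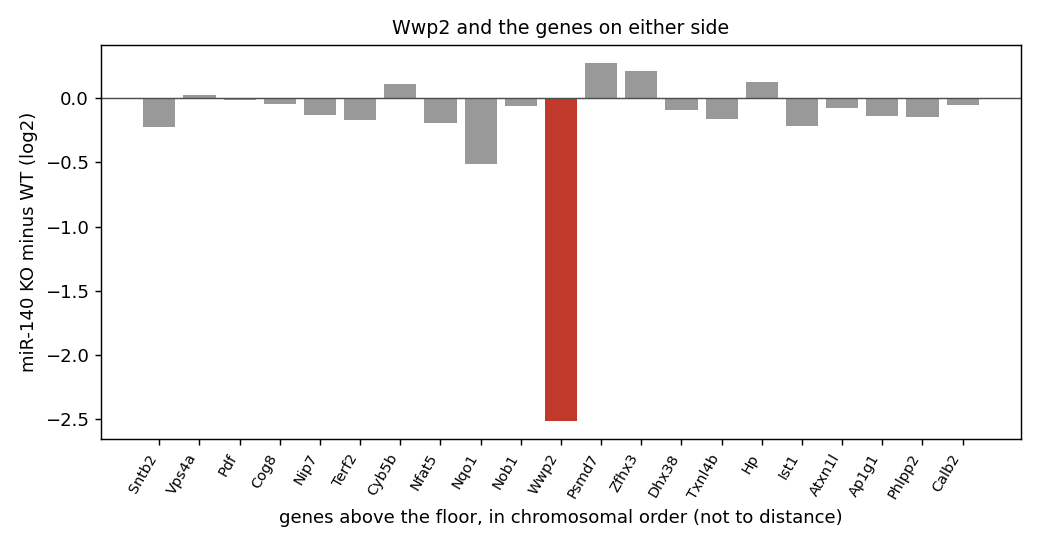
Difference of miR-140 KO minus WT (log2, vertical axis) for Wwp2 and the 10 compared genes on either side of it in chromosomal order, not drawn to distance. The Wwp2 bar reaches -2.52, and the other 20 lie between -0.51 and 0.28.

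Other genes that carry a microRNA in an intron were read in the same way. Of 30 such host genes, 24 were compared, 18 with a lower and 6 with a higher signal in the knockout, and the median was -0.06. Over all genes compared 59.2% were lower, 1.22% at least 2-fold lower and 0.475% at least 2-fold higher. None of the 24 host genes differed by 2-fold with the probe set used. Ctdspl, a phosphatase gene that hosts a miR-26 copy, was nearest to that mark, at 8.57 in the knockout and 9.50 in the WT (-0.93). Pank1 stood at -0.53, Ctdsp1 at -0.36 and Lpp at 0.35, and the probe sets of Lpp above the floor ran from 0.13 to 1.22.

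Adaptors and regulators bring NEDD4-family ligases to their substrates or control their activity. Of 22 listed genes 17 were compared, 8 lower and 9 higher in the knockout, none by 2-fold with the probe set used, with a median of 0.04. Over all genes compared 59.2% were lower, 1.22% at least 2-fold lower and 0.475% at least 2-fold higher. Amot, a PPxY scaffold of the Hippo pathway, read 10.29 in the knockout and 9.45 in the WT (0.84). Pmepa1, a PPxY membrane protein that binds NEDD4 ligases and dampens TGF-beta signalling, stood at 0.68. A second Amot probe set above the floor stood at 1.40, and one of Grb10, a growth factor receptor adaptor whose chosen probe set stood at -0.08, at 1.31, so the count by 2-fold depends on the probe set. The kinase gene Sgk1, whose product phosphorylates Nedd4l, stood at -0.51 and Amotl2 at -0.46.

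Genes of proteins reported as substrates or partners were mixed. Of 35 listed genes 24 were compared, 15 lower, 8 higher and 1 equal, and 2 were at least 2-fold lower; the median was -0.11. Over all genes compared 59.2% were lower and 1.22% at least 2-fold lower. Those 2 were Sox9 (-1.18), which is also a chondrocyte marker, and Notch1, at 6.61 in the knockout and 7.71 in the WT (-1.10), with the knockout signal under the floor. Smad1, a BMP effector and Smurf1 substrate, read 8.75 in the knockout and 9.36 in the WT (-0.60). Polr2a, the large subunit of RNA polymerase II, stood at -0.60, and another of its probe sets above the floor stood at 0.13. Messenger RNA levels say nothing of ubiquitination or protein amount.

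The shared machinery showed small differences. Of the ubiquitin, E1 and E2 genes, 8 of 14 were named on the array by 1 symbol and 7 were compared, 4 lower and 3 higher, with a median of -0.08. Ube2e3 (-0.20), Ube2d1 (0.18), Ube2d3 (0.16) and Ube2e2 (-0.13), all E2 enzymes, were farthest from 0, and the Ube2d3 probe sets above the floor ran from -0.21 to 0.22. Among HECT ligases outside the family, 14 of 18 were compared, 10 lower, 3 higher and 1 equal, with a median of -0.04. Herc1 (0.21), Arel1 (-0.19), Ube3c (-0.14) and Herc4 (-0.11) were farthest from 0, and none reached 2-fold. Over all genes compared 59.2% were lower, 1.22% at least 2-fold lower and 0.475% at least 2-fold higher. Other probe sets above the floor stood at 0.51 for Arel1, at 0.02 for Ube3c and at 0.96 for Trip12, whose chosen probe set stood at -0.11.

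**Figure D5:**
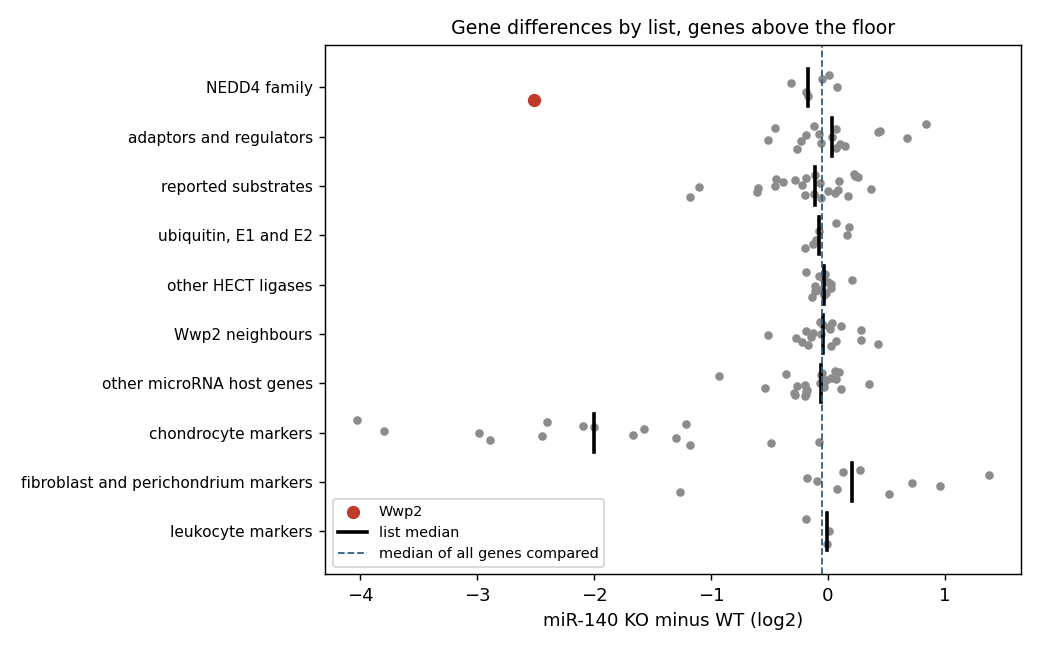
Difference of miR-140 KO minus WT (log2, horizontal axis) of each gene compared, by list, with a black bar at the list median and a dashed line at the median of all genes compared (-0.05). With the probe set used for each gene, Wwp2 (-2.52) lies apart from the other 6 family members, in the range of the chondrocyte markers (median -2.00). The ubiquitin and other HECT ligase genes lie between -0.20 and 0.21.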

How the data were processed

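Messenger RNA was measured on 2 arrays, 1 of miR-140 KO and 1 of WT rib chondrocytes, grouped by their titles. The deposited log2 signals were made by the authors with RMA, per the labels' design text, in Affymetrix Expression Console 1.1, per the submitters' processing notes. RMA brings arrays to a common distribution, which removes a shift shared by most genes, and it compresses differences of dim probe sets. The range of the values, 3.24 to 14.2, shows a log2 scale. Symbols came from the platform annotation: 34945 probe sets had 1 symbol, 932 several and 9160 were not listed and stay unnamed; controls were left out. None of the 932 names a member. RefSeq tables of GRCm38.p6 gave sequences and gene order.

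Differences, counts at 2-fold and medians were computed with pandas 2.3.3 (Python 3.11.15); the code was tested on simulated data. The named genes are all members and chondrocyte markers, and up to 4 compared genes farthest from 0 in every other list. They also include 3 neighbours on either side of Wwp2. The further genes in the plot of neighbours, Grb10, Trip12 and Pdgfra were added after their values were seen. The 5 genes nearest to Wwp2 in signal, also part of the rule, are not given, since levels of different probe sets are not comparable. Members, the 13 lists and alternatives were chosen with earlier results of these data known. Alternatives were 3 renormalizations, floors of 6, 8 or none, low values raised to 7, the mean of all probe sets, probe sets of 1 transcript, a 1.5-fold threshold and, added after seeing the data, the mean of probe sets above the floor.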

Additional observations from a re-analysis of the deposited data

How the results depend on the processing

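A difference was taken as kept if it moved by less than 0.25 on the log2 scale, and a count if it stayed within 1.5 times. Of 122 recomputed values of the main results, 118 were kept under the 11 alternatives, and 1 member stood at least 2-fold apart in all 11. Part of this was fixed in advance. The probe set used for Wwp2 read 7.13 and 9.65, so a change of floor could not move its -2.52. The tolerance of 0.25 exceeds the size of the paralogue median and of each list median recomputed, so these can change sign and still count as kept. RMA had already brought the arrays to a common distribution, so renormalization had little to change. With the mean of all its probe sets, Wwp2 stood at -1.77 and its gap to the paralogue median was -1.90, because the 2 dim probe sets then count. With a floor of 8, 2 Wwp2 probe sets remain, both lower. A 1.5-fold threshold gives 506 genes. Nedd4 and Smurf2 turned to 0.34 and 0.22 with the mean of their probe sets, also with those above the floor, because their other probe sets have the opposite sign. The paralogue median ran from -0.17 to 0.12 and changed sign in 2 settings. Medians of the adaptors changed sign in 3, of the other HECT ligases in 2 and of the E1 and E2 genes in 1, all staying within -0.10 to 0.16. Nedd4 and Nedd4l have no value with probe sets of 1 transcript, Smurf1 none with a floor of 8, and Nedd4l and Smurf1 none with the mean of all probe sets, which lies under the floor. No paired analysis was possible because each group has 1 array. Without replicates the spread between cultures is unknown, and signal near the floor limits what dim probe sets show.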
